A study of Caenorhabditis elegans with 2 samples.

Results

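The genes described here encode the machinery that transcribes messenger RNA in Caenorhabditis elegans: RNA polymerase II, TFIID with the TATA-binding protein, TFIIB, Mediator, the cyclin-dependent kinases of transcription and the elongation factors named spt. They were chosen by name from the Ensembl WBcel235 annotation, with earlier results of these data known. The rule took the protein-coding genes called ama-1, rpb-, taf-, tbp-, ttb-, mdt-, cdk-7, cdk-8, cdk-9, cdk-12 or spt-. This gave 58 genes of 19985 protein-coding genes: 12 of the polymerase core, 18 of TFIID with TBP, 1 of TFIIB, 20 of Mediator, 4 kinases and 3 spt genes. What was measured at them is the binding of ZK546.5, a C2H2-type zinc finger protein, by chromatin immunoprecipitation and sequencing (ChIP-seq). The worms were whole L2 larvae of both sexes from strain OP231, which carries unc-119(ed3) III and the transgene insertion wgIs231 that makes ZK546.5 with GFP and FLAG at its C terminus. The labels name no promoter for the transgene. All data come from 1 group with 2 biological replicates of this line, so no condition is compared with another, and the worms were not sorted by tissue.

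RNA polymerase II is recruited to a promoter together with general transcription factors. TFIID, made of TBP and its associated factors (TAFs), recognises the promoter, TFIIB bridges it to the polymerase, and Mediator carries contacts between sequence-specific factors and the polymerase. Kinases then phosphorylate the tail of the largest polymerase subunit, and factors such as SPT-4 with SPT-5 travel with the enzyme through the gene. Many of these proteins, though not every one, are needed for messenger RNA synthesis in general. Many C. elegans genes lie back to back with a neighbour or in operons, in which a shared promoter serves several genes.

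The sequences under the summits of 4 of the member peaks are given first, since all results rest on where these summits lie. With them is that under the strongest member summit below the authors' threshold (mdt-9). Each is the 101 bases centred on the summit in WBcel235, the sequence of ce11, on the coding strand of the named gene. Capitals mark matches, on either strand, to the strings CCAAT, the CCAAT box, GGGCGG, the core of Sp1-type GC boxes, and TGCGC. Both boxes belong to a set of 6 promoter strings searched on both strands, with TATAAA for the TATA box, TTTCAG for the splice acceptor, GAGAGA for GAGA repeats and CACGTG for the E-box. The string TGCGC was added after the sequences had been read. It can overlap its own reverse complement.
rpb-11 (chrII:14059926-14060026, plus strand): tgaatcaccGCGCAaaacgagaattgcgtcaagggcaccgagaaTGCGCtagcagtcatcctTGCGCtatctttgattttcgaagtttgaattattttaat
mdt-8 (chrII:11534731-11534831, minus strand): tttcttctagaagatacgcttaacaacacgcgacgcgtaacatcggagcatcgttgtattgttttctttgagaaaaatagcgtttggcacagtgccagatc
mdt-26 (chrII:5660980-5661080, plus strand): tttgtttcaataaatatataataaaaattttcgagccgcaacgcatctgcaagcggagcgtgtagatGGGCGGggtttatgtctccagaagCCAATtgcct
mdt-22 (chrII:10301128-10301228, plus strand): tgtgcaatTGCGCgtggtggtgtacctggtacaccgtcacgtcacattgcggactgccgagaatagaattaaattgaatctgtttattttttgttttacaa
mdt-9 (chrIV:13386190-13386290, plus strand): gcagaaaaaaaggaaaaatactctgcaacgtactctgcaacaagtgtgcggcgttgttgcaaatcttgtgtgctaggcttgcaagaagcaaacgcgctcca

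In these windows TGCGC occurred 3 times at rpb-11 and 1 time at mdt-22, and not at mdt-8, mdt-26 or mdt-9. With the peaks not shown, 4 of 8 member windows held it. Over all 491 thresholded summits 37.9% of windows held TGCGC, against 6.09% of the 29509 pooled summits below the threshold. These backgrounds differ in base composition: the median GC content was 48.5% at thresholded summits, 32.7% below the threshold and 42.6% at the 8 member peaks, and its part in the share was not tested. GAGAGA was found at cdk-7 only (20.98% of thresholded and 5.77% of other windows), CCAAT at cdk-7 and mdt-26 (15.7% and 19.9%), GGGCGG at mdt-26 (7.13% and 2.14%) and TATAAA at taf-4 (5.09% and 13.4%). TTTCAG (6.52% and 21.8%) and CACGTG (3.46% and 1.38%) were at none of the 8. In windows of 201 bases TTTCAG was at 1 of the 8 (19.1% and 38.3%) and GAGAGA at 2 (32.2% and 10.7%). The absence of a string says only that those letters are not in the window.

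The authors' lists give each peak a position, a summit and a signal, which is the peak caller's own value against a control library and ranks peaks within a list; lists are not on a shared scale. On ce11 the pooled list held 30000 peaks and background regions, with signals from 12.2 to 3454, that of replicate 1 held 19076 and that of replicate 2 held 30000. Of these, 491 peaks passed the irreproducible discovery rate (IDR) threshold of the authors, and they were the 491 strongest of the pooled list, the weakest at a signal of 45.9. A gene was given a peak when the summit lay between 1000 bp upstream and 200 bp downstream of an annotated 5′ end. Genes said below to have no summit had none in this window and may have one elsewhere. Read depth is not known from the files. Presence in a list that holds background regions does not by itself show binding, and only thresholded peaks are called peaks below. In 379 of the 491 the summit is the exact middle of the peak, so distances of a few bp carry little weight.

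A thresholded peak lay in the window of 8 of the 58 genes: in the order of the complexes rpb-3, rpb-11, taf-4, mdt-8, mdt-19, mdt-22, mdt-26 and cdk-7. That is 13.8% (exact 95% interval 6.15 to 25.4), beside 2.89% of all 19985 coding genes. Among the 38 of the genes that had any pooled summit in the window the share was 21.1% (interval 9.55 to 37.3), beside 7.08% of 8159 coding genes. All of these intervals cover counting error only, and no test was made. By complex, the counts were 4 of 20 for Mediator (20%, interval 5.73 to 43.7), 2 of 12 for the polymerase core (16.7%, 2.09 to 48.4), 1 of 18 for TFIID with TBP (5.56%, 0.141 to 27.3), and 1 of 4 for the kinases (25%, 0.631 to 80.6). Neither ttb-1 nor any of the 3 spt genes had one. The intervals of all complexes overlap widely, so their order is not set by these counts. With each peak given to the coding gene of the nearest 5′ end only, 5 members remained (cdk-7, mdt-22, mdt-26, rpb-11 and taf-4), which is 13.2% of the 38, beside 4.61% of the 8159 coding genes. Among the stronger 246 peaks only taf-4 and rpb-11 had one, which is 5.26% of the 38, beside 3.66% of the 8159, so the difference in share was small there.

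**Figure D1:**
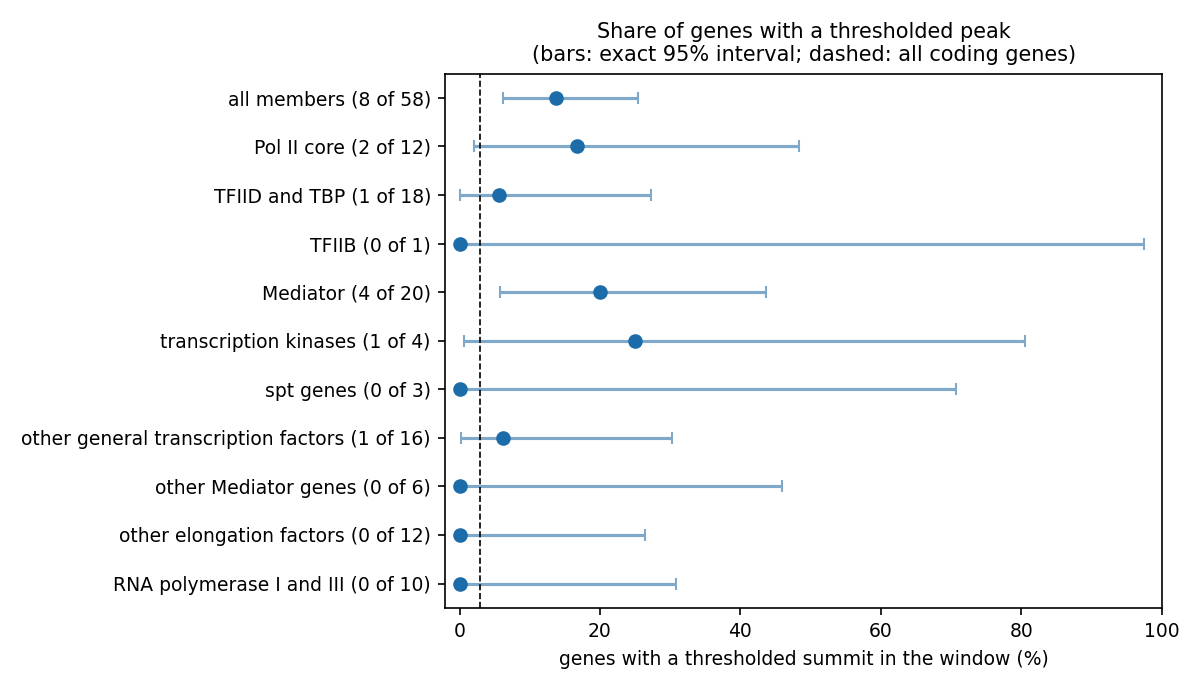
Percentage of genes with a thresholded summit in their window (x axis) for the genes described, each of their complexes and 4 lists of related genes, with exact 95% intervals as bars. The dashed line is the 2.89% of all coding genes. The interval of all members is 6.15 to 25.4, and those of single complexes are wide. The bars cover counting error only, and no test was made.

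The gene with the highest signal by far was taf-4. It had a pooled signal of 966, next came rpb-11 at 87.1, and the other 6 peaks lay between 46.4 and 66.7. A further 30 genes had a pooled summit below the threshold, with signals from 12.8 to 37.9 and a median of 19.6, beside a median of 17.1 for the 7581 coding genes below the threshold. The remaining 20 had no pooled summit. The strongest members below the threshold of 45.9 were mdt-9 at 37.9 (rank 676), rpb-8 at 35.5 (rank 789) and mdt-6 at 34.97 (rank 820). Just inside the threshold were mdt-26 at 46.99 (rank 479) and mdt-22 at 46.4 (rank 484). So 2 of the 4 Mediator peaks lay close to the limit.

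**Figure D2:**
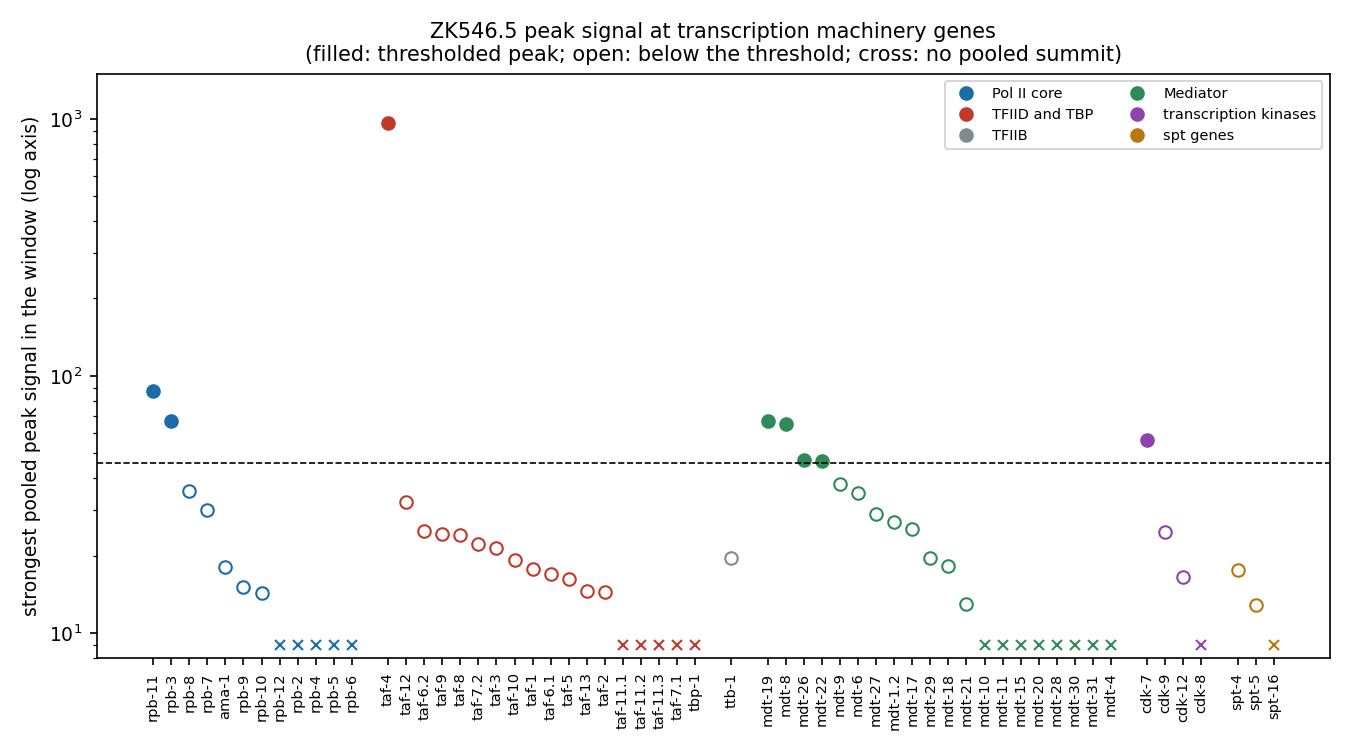
Signal of the strongest pooled summit in the window of each of the 58 genes (log axis), grouped by complex. Filled points passed the authors' IDR threshold (dashed line, signal 45.9), open points did not, and crosses at the bottom mark genes with no pooled summit; taf-4 stands at 966 and the next gene, rpb-11, at 87.1.

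In the polymerase core the peaks were at rpb-11 and rpb-3, which encode the partner subunits on which assembly of the enzyme begins. The peak of rpb-11 (chromosome II, 14059798 to 14060153) had a pooled signal of 87.1 and rank 203. Its signal was 38.9 in replicate 1 (rank 322) and 43.1 in replicate 2 (rank 173), so it lay among the strongest 491 of each. The summit was 109 bp upstream of rpb-11 and 763 bp upstream of W01G7.4, the next gene on the same strand, and between genes. The peak of rpb-3 (chromosome I, 8728400 to 8728755) had a pooled signal of 66.5 and rank 292, with 42.95 in replicate 1 (rank 265) and 27.4 in replicate 2 (rank 315). It lies between rpb-3, 186 bp away, and the divergent gene pas-4, which encodes a proteasome alpha subunit and whose 5′ end is nearer, at 91 bp.

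Other polymerase subunits did not pass the threshold. For rpb-8, a subunit that all 3 nuclear polymerases use, the pooled signal was 35.5 (rank 789), with 17.7 in replicate 1 (rank 2674) and 15.3 in replicate 2 (rank 1324). For rpb-7, part of the stalk of the enzyme, it was 30.1 (rank 1234), with 19.5 in replicate 1 and 8.01 in replicate 2; this summit was 81 bp downstream of the 5′ end, in an intron of rpb-7, and 78 bp upstream of the divergent gene Y54E10BR.2. At ama-1, which encodes the largest subunit with the repeated tail, the pooled summit (18.1, rank 10005) was 605 bp upstream, in a UTR exon of the neighbouring gene ttr-20. Replicate 1 had no summit in the ama-1 window and replicate 2 had 2, the stronger 29 bp upstream (12.04, rank 3668) and the other, overlapping the pooled region, at a signal of 11.9 (rank 3803). The genes rpb-9 and rpb-10 had pooled signals of 15.1 and 14.3, rpb-5 had a summit in replicate 2 alone (11.1), and rpb-2, rpb-4, rpb-6 and rpb-12 had none in any list.

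At TFIID the only peak was that of taf-4, whose product is a histone-fold subunit of the TFIID core and partners with TAF-12. In C. elegans, TAF-4 is known for its broad need in embryonic transcription and for being held in the cytoplasm of early germline cells. The peak (chromosome I, 382343 to 382704) had a pooled signal of 966, rank 22 of 30000. It had a signal of 587 in replicate 1, again rank 22, and of 378 in replicate 2, rank 24. The summit lay 296 bp upstream of taf-4 in the pooled list, 303 bp upstream in replicate 1 and 305 bp upstream in replicate 2. The divergent gene pqn-59 also counts this peak, at 628 bp from its own 5′ end, so taf-4 was the nearer. The 101 bases around its summit had a GC content of 57.4%, the highest of the 8 member peaks.

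No other TAF gene came near that level, the next being taf-12 with a pooled signal of 32.3 (rank 1008) at 889 bp upstream, with 17.6 in replicate 1 and 16.2 in replicate 2. After it came taf-6.2, a histone-fold subunit, with 24.8 (rank 2671) at 4 bp upstream of its 5′ end, with 13.1 in replicate 1 and 8.97 in replicate 2. The divergent gene Y37E11AL.3 has its 5′ end 198 bp from the same summit. The other 10 TAF genes with a pooled summit had pooled signals from 14.4 (taf-2) to 24.2 (taf-9). The gene of the largest TAF, taf-1, had 17.7 in the pooled list, 10.6 in replicate 1 and 12.9 in replicate 2. For tbp-1, which encodes TBP itself, the pooled list and replicate 1 had no summit in the window, and replicate 2 had one of signal 7.29 (rank 19537). Of the paralogous genes taf-11.1, taf-11.2, taf-11.3 and taf-7.1, only taf-11.3 had a summit in any list, in replicate 2 (9.38). TFIIB, encoded by ttb-1, had 19.6 in the pooled list (rank 7308), 12.1 in replicate 1 and 7.30 in replicate 2, at 167 bp upstream in the pooled list.

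Mediator had peaks at mdt-19, mdt-8, mdt-26 and mdt-22, but a neighbouring coding gene was nearer to the summit at mdt-19 and mdt-8. Over all 578 coding genes with a thresholded peak, another gene was nearer for 35.8%. MDT-8 and MDT-22 are subunits of the head module, which contacts the polymerase. The peak of mdt-22 (chromosome II, 10301000 to 10301355) had a pooled signal of 46.4 (rank 484), with 26.1 in replicate 1 (rank 617) and 22.4 in replicate 2 (rank 454). Its summit was 38 bp upstream of mdt-22 and 98 bp upstream of a 5′ end of the overlapping divergent gene clpp-1, a mitochondrial protease subunit, and lay in an intron of a longer clpp-1 transcript. The peak counted for mdt-8 (chromosome II, 11534603 to 11534958) had a pooled signal of 65.1 (rank 303), 38.9 in replicate 1 (rank 321) and 24.9 in replicate 2 (rank 369). That summit was 965 bp upstream of mdt-8 and 302 bp upstream of Y62F5A.12, a gene on the same strand that ends 110 bp before mdt-8 begins. Whether both genes are transcribed together is not recorded in the annotation used here.

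The other Mediator peaks differed in how the replicates ranked them. MDT-26 belongs to the subunit family that in mammals links Mediator to elongation factors. The peak of mdt-26 (chromosome II, 5660852 to 5661207) had a pooled signal of 46.99 (rank 479), with 23.2 in replicate 1 (rank 858) and 20.1 in replicate 2 (rank 539). It was therefore among the strongest 491 of neither replicate. Of all 491 thresholded peaks, 75 lay outside the strongest 491 of replicate 1 and 90 outside those of replicate 2. It lies between mdt-26, 151 bp away, and the divergent gene ift-43 of ciliary transport, 244 bp away. At mdt-19 the peak had a pooled signal of 66.7 (rank 291) and 57.7 in replicate 1 (rank 180), but 9.38 in replicate 2 (rank 9540). Only 9 of the 491 thresholded peaks were ranked lower in replicate 2 or had no overlapping region there. The summit of replicate 1 lay 5 bp and that of replicate 2 lay 2 bp from the pooled summit. Its summit was 762 bp from mdt-19 and 257 bp from the divergent gene apb-1, a beta-adaptin of clathrin adaptor complexes.

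**Figure D3:**
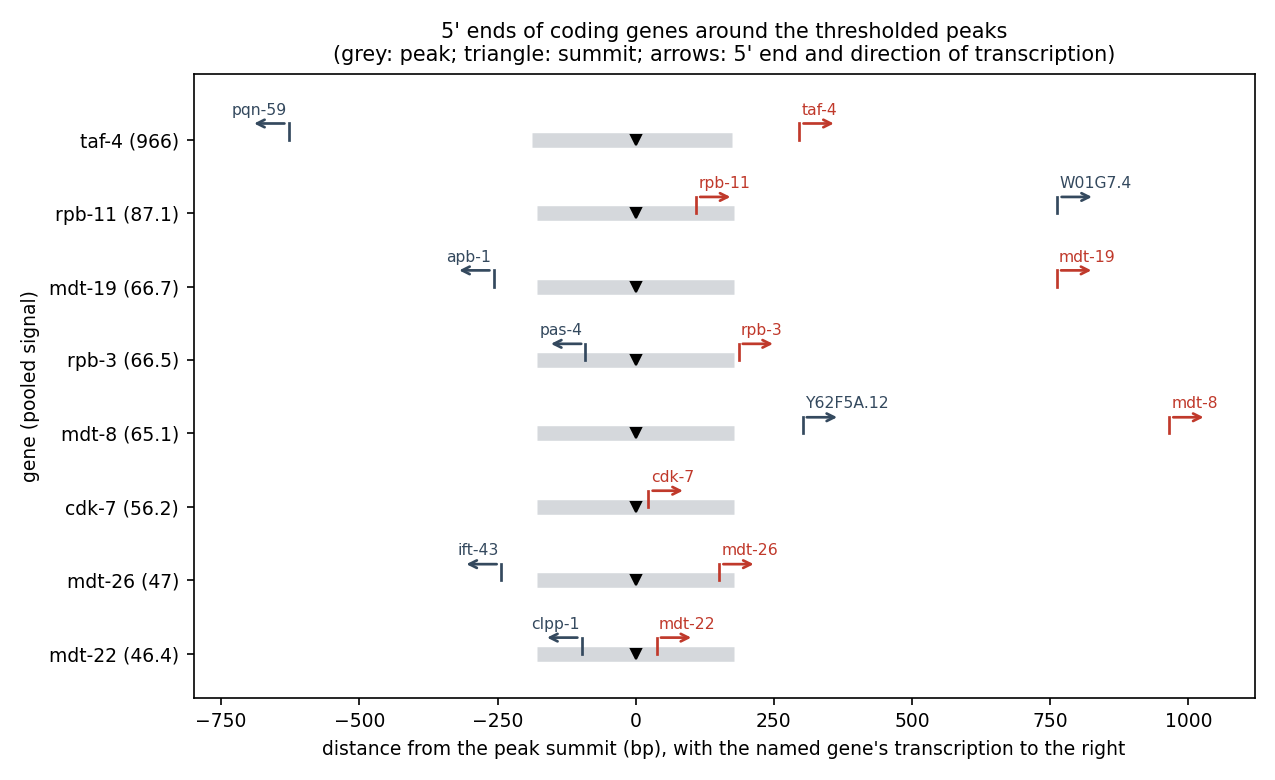
Position of annotated 5′ ends of coding genes relative to the summit (x axis, bp) for the 8 thresholded peaks, each drawn with the named gene (red) transcribed to the right. Other coding genes whose window holds the summit are in dark blue. In 5 of the 8 peaks the named gene has the nearest 5′ end, and at mdt-19, rpb-3 and mdt-8 another gene does. Another gene was thus nearer for 37.5% of these members, beside 35.8% of the 578 coding genes with a thresholded peak.

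Below the threshold, the strongest Mediator genes were mdt-9 and mdt-6. At mdt-9 the pooled signal was 37.9 (rank 676), with 20.2 in replicate 1 (rank 1485) and 14.9 in replicate 2 (rank 1490). The summit was 140 bp upstream of mdt-9, 84 bp from Y62E10A.23, and also within the windows of Y62E10A.20 and lsm-3. At mdt-6, another head subunit gene, the pooled signal was 34.97 (rank 820), with 16.8 in replicate 1 and 12.6 in replicate 2, and the summit fell exactly on the 5′ end of Y57E12AL.6. The genes mdt-27 and mdt-17 had higher ranks in replicate 1 (518 and 960, signals of 28.8 and 22.5) than in the pooled list (1412 and 2375) and no summit in their window in replicate 2. At mdt-15, whose product is known in C. elegans for the control of fat metabolism genes, only replicate 2 had a summit (10.3, rank 7062). The genes mdt-4, mdt-10, mdt-20, mdt-28, mdt-30 and mdt-31 had none in any list.

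Among the kinases only cdk-7 had a peak. CDK-7 is the kinase of TFIIH and phosphorylates the polymerase tail at initiation. Its peak (chromosome I, 2291050 to 2291405) had a pooled signal of 56.2 (rank 375), with 22.2 in replicate 1 (rank 1001) and 30.6 in replicate 2 (rank 267). Replicate 2 alone placed it among its strongest 491. The summit was 23 bp upstream of a 5′ end of cdk-7, and no other coding gene had it in its window. The kinase of the elongation factor P-TEFb, cdk-9, had 24.6 in the pooled list (rank 2765), 159 bp upstream, and 17.3 in replicate 1. Its 9.79 in replicate 2 was at another summit, 741 bp upstream. The replicate 2 region that overlaps the pooled one had 8.98 (rank 10914). At cdk-12 the pooled signal was 16.5 (rank 13728). The pooled region of cdk-12 overlapped a region of replicate 1 (16.5, rank 3631) whose summit was 182 bp away and outside the window, and no region of replicate 2. No list had a summit in the window of cdk-8, the kinase of the Mediator. Each list had a summit inside the gene beyond the window, with a pooled signal of 16.2 (rank 14606). Of the 3 spt genes, spt-4 had a pooled signal of 17.6 (rank 11114), in a coding exon of its neighbour attf-3, spt-5 had 12.8 (rank 26765), in a coding exon of bre-5, and spt-16 had a summit in replicate 2 alone (8.78).

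Each of the 8 thresholded peaks overlapped a region in both replicate lists, and so did 487 of all 491. The thresholded list was derived from these same lists by IDR, so such overlap is no independent measure of replication. At the 8 peaks the summit of the overlapping region lay 0 to 68 bp from the pooled summit in replicate 1 and 2 to 29 bp in replicate 2. Taking the strongest 491 of each replicate in place of the thresholded list, 5 of the genes had a peak in replicate 1 and 6 in replicate 2, beside 2.77% of coding genes in either case. Both replicates had one at 4 genes, taf-4, rpb-11, rpb-3 and mdt-8, beside 2.12% of coding genes. A summit of any strength was present for 38 genes in the pooled list (65.5%), for 34 in replicate 1 (58.6%) and for 33 in replicate 2 (56.9%), beside 40.8%, 29.4% and 41.1% of coding genes. In all 3 lists at once it was present for 24 genes (41.4%), beside 17% of coding genes, and in at least 1 list for 44 (75.9%), beside 57.3%. Over the 25 genes with a summit in both replicate lists, the signals had a Spearman rho of 0.65, and 0.61 without taf-4, beside 0.52 over 3633 coding genes. These are descriptions: neighbouring genes share peaks, and the summits compared need not be the same.

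**Figure D4:**
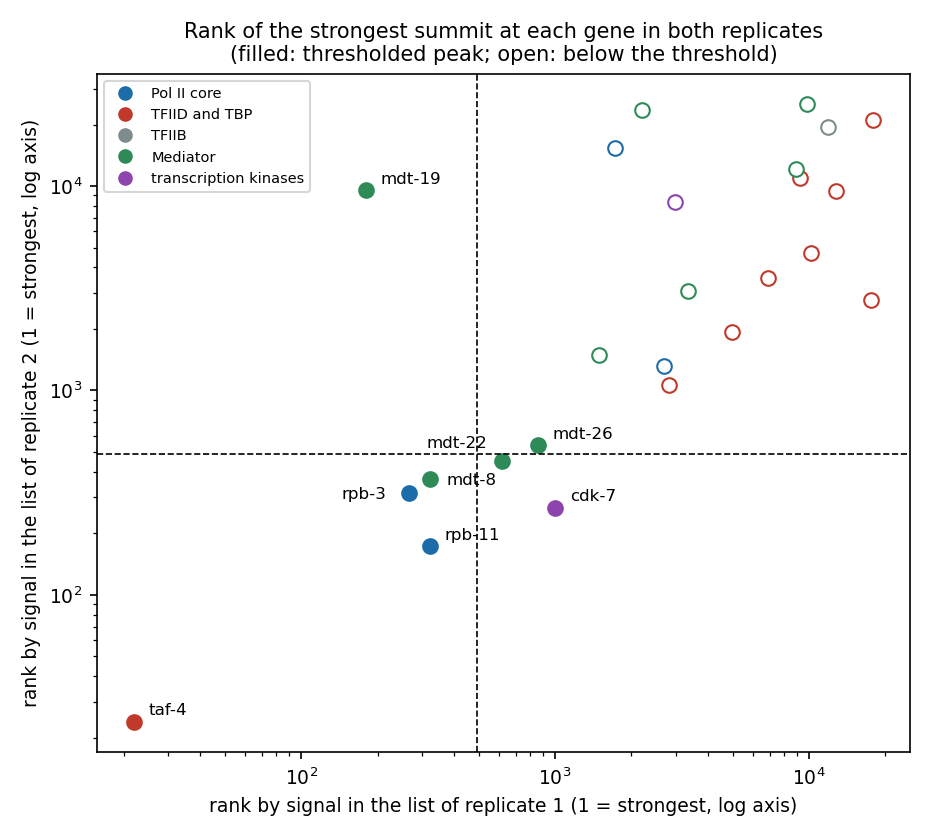
Rank by signal of the strongest summit in each gene's window in replicate 1 (x axis) and replicate 2 (y axis), both log axes with 1 as the strongest, for the 25 genes with a summit in both lists. Filled points have a thresholded peak and dashed lines mark rank 491; mdt-19 ranks 180 in replicate 1 and 9540 in replicate 2.

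The surroundings of the genes were described by their nearest upstream coding gene, but genes that overlap the member were not always counted. At mdt-22 and rpb-7 a divergent gene overlaps the member (clpp-1 and Y54E10BR.2). The upstream gene taken there was a farther one, nep-26 and mod-5. At mdt-9 the same-strand gene Y62E10A.23 overlaps the member, and the gene taken was Y62E10A.20 on the opposite strand. Other members may have such cases too. Of the 58 genes, 26 had the neighbour so taken on the opposite strand, with mdt-9 among them, and 32 on the same strand, with rpb-7 among these. By this count 44.8% were opposite, beside 45.4% of all coding genes. Of the 8 peaks, 7 belonged to genes with an opposite-strand neighbour, beside 73% of the 578 coding genes with a thresholded peak. The exception was mdt-8. Of the members, 20 (34.5%) followed a same-strand gene by 500 bp or less, against 18.1% of all coding genes. Of these 20, 11 had a pooled summit and 1 a thresholded peak, which was that of mdt-8 and lay upstream of its neighbour as well. None of the 12 genes with a same-strand neighbour farther away had a peak (1.04% of such coding genes did). Among all coding genes, 2.19% of those that closely follow a same-strand gene had one, and 9.29% of those with a close opposite-strand neighbour, where 2 of 11 members had one (18.2%, rpb-3 and mdt-26). The other 5 peaks were at members whose opposite-strand neighbour was farther than 500 bp, 5 of 15 (33.3%), beside 3.47% of such coding genes. Over all coding genes the close opposite-strand class had the higher share. Among the members the far class did, but on few genes. That far class includes mdt-22, placed there by nep-26 at 1084 bp. The close class includes mdt-9, placed there by Y62E10A.20 at 289 bp. The order among the members is therefore not set.

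Over 4 lists of related genes outside the naming rule there was 1 peak. It was at pqn-51, which encodes the large subunit of TFIIA, with a pooled signal of 685 (rank 31), 418 in replicate 1 (rank 29) and 275 in replicate 2 (rank 31). That summit lay on chromosome V, 41 bp downstream of the pqn-51 5′ end, while the 5′ end of K11D12.14 was 12 bp away. With it, the list of other general factors had 1 of 16 genes (6.25%, interval 0.158 to 30.2). Other Mediator genes had 0 of 6 (upper bound 45.9%), the highest being sop-3 at 36.998 and sur-2 at 34.5. Other elongation factors had 0 of 12 (upper bound 26.5%), the highest being the PAF complex gene pafo-1 at 39.03. Genes of RNA polymerases I and III had 0 of 10 (upper bound 30.8%), led by rpoa-1, the largest subunit of polymerase I, at 31.6. The interval of each of these 4 lists includes the 2.89% of all coding genes.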

How the data were processed

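ZK546.5 ChIP-seq peak lists of 2 biological replicates, which form 1 group, were analysed. Per the submitters' records, the authors called peaks and background regions for each replicate and for both pooled, each with a control library that was not analysed here, and derived the thresholded list from these lists by IDR. The deposited signal is the caller's value and is not scaled between lists; the deposited score, of unstated scale, was not used. The deposited summit offset was added to the peak start. The aligner, the caller, their versions and the depth are not stated per the labels or headers. The ce10 lists were not used. Coordinates are ce11, 1-based, read against WBcel235 with Ensembl release 115; 0 peaks passed a chromosome end.

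The window was 1000 bp upstream to 200 bp downstream of any annotated 5′ end, and the strongest summit counted. Shares have exact Clopper-Pearson 95% intervals. Replicate regions overlapped by at least 1 bp. Gene assignment was tested on simulated data: 200 of 200 planted summits were assigned as planted. Members, lists and the rule for named genes (every member with a thresholded peak, ama-1, tbp-1, the strongest members below the threshold by complex, and every gene of the related lists with a thresholded peak) were chosen with earlier results of these data known. The other genes given with values were chosen after their values were seen. Python 3.11.15, numpy 2.4.6 and scipy 1.17.1 were used. The sequences of 4 member peaks are not reported here.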

Additional observations from a re-analysis of the deposited data

How the results depend on the processing

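Of 87 alternative values, 68 stayed within 1.5 times the main count, or within the counting interval of a share. The 68 include the counts of TFIIB and of the spt genes, which were 0 in every setting. The 8 members with a thresholded peak became 2 among the stronger 246 peaks, 5 with the nearest 5′ end only and, added after seeing the data, 4 when each replicate had to place the peak among its strongest 491; leaving out a replicate gave 5 to 6. The polymerase core fell from 2 to 1 among those 246 and to 1 with the nearest 5′ end. Mediator fell from 4 to 2 with 500 bp upstream, to 0 among those 246, to 2 with the nearest 5′ end and to 2 without either replicate. The kinases fell from 1 to 0 among those 246 and gave 0 to 1 with a replicate left out. The share of coding genes, 7.08%, became 8.19% with 500 bp upstream, 7.68% with 0 bp downstream, 3.66% among those 246 and 4.61% with the nearest 5′ end. Fewer peaks or smaller windows are part of how these alternatives are made. Windows of 2000 bp upstream, peak midpoints and first 5′ ends left the count of members at 8. The wider window holds the main one, so it cannot lower that count. In 379 of the 491 peaks the summit is the exact middle, so midpoints change little by construction. Both settings are among the 68. No paired analysis was possible because all samples belong to the same group. Depth is unknown, so a missing summit is not absence of binding.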
